A study of Mus musculus with 9 samples.

Results

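The miR-10, miR-99 and miR-100 family comprised 8 mature miRNAs in these data, selected by name among the 548 mature miRNAs of the Ago2 table and the 549 of the Sfpq table. The members were the 5 guide arms mmu-miR-10a-5p, mmu-miR-10b-5p, mmu-miR-99a-5p, mmu-miR-99b-5p and mmu-miR-100-5p, and the 3 passenger arms mmu-miR-10a-3p, mmu-miR-99b-3p and mmu-miR-100-3p. All 8 were found in both tables. Small RNAs were sequenced from input extract, from an RNA-IP of Ago2 with the antibody clone 2D4 and from an RNA-IP of Sfpq with the antibodies Ab38148 and B92. RNA-IP recovers the RNA held by a protein by pulling the protein out of a lysate on antibody-coated beads, and input is lysate RNA taken without a pull-down. Each group had 3 libraries of mouse cells, 9 in all. RAW 264.7, a line resembling macrophages, is the cell type in the labels, which also give a stem cell as the source. The series' design text names P19, an embryonal carcinoma line. The study's own text places the small RNA sequencing of both RNA-IPs in RAW 264.7 cells. All 7 macrophage and myeloid miRNAs looked for were present and made up 6.06% of the miRNA signal of the input. Most of their summed signal of 374140 came from miR-21a-5p (265164), which many cell types express. miR-146a-5p had 52710, miR-146b-5p 38144 and miR-155-5p 12866. The blood-restricted miR-142-5p, miR-142-3p and miR-223-3p had 4307, 846 and 103. Of 10 miRNAs of pluripotent cells only miR-302d-3p was matched by name, at a signal of 0 in the input. Of the neuronal markers 2 of 3 were found (0.0293% of the miRNA signal of the input), and the 3 muscle markers summed to a signal of 0.892 there. No RNA-IP with a control antibody was among the libraries, so RNA that any antibody or bead would bring down cannot be told apart from RNA bound to Ago2 or Sfpq.

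Ago2 is an Argonaute protein, the core of the silencing complex that carries a miRNA to its targets. Sfpq is a nuclear RNA-binding protein of paraspeckles, and the study asked which small RNAs it shares with Ago2. A miRNA is cut from a hairpin as a duplex, of which 1 arm (the guide) is usually kept by Argonaute while the other (the passenger, or star) is usually discarded. The guide finds its targets mainly by its seed, bases 2 to 8 from the 5′ end. The family is among the most ancient miRNA families of animals. Its miR-10 genes lie in the Hox clusters, which pattern the body axis, and miR-10 acts on Hox transcripts, whereas miR-99 and miR-100 lie beside let-7 and miR-125 genes and are known for targeting mTOR and other growth genes. The seeds of both groups begin with ACCC. The bases they share further along lie 1 base later in miR-10 than in miR-99 and miR-100, so closely related miRNAs have different seeds.

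The guide arms are shown first, because the seed divides them into a miR-10 and a miR-99/100 group that are compared throughout. Sequences are those of RefSeq on GRCm38.p6, written 5′ to 3′ with the seed in capitals. A RefSeq sequence was found for 493 of the 575 mature miRNAs of the tables, including all 8 members.
mmu-miR-10a-5p: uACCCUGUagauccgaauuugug
mmu-miR-10b-5p: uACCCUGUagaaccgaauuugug
mmu-miR-99a-5p: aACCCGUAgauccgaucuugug
mmu-miR-100-5p: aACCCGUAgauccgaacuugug
mmu-miR-99b-5p: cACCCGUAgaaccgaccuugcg
The passenger arms, together with mmu-miR-99a-3p, which was not on the family list but shares the seed of mmu-miR-99b-3p, are shown because the arms of the miR-99b hairpin had different patterns.
mmu-miR-10a-3p: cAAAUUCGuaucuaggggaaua
mmu-miR-99b-3p: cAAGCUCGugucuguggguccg
mmu-miR-99a-3p: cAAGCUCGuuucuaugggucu
mmu-miR-100-3p: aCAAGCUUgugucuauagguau

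No other mouse miRNA of the RefSeq table has the seed ACCCUGU of the 2 miR-10 guides or the seed ACCCGUA of the 3 miR-99/100 guides. Counted from the 5′ end, miR-10b-5p differs from miR-10a-5p by the single substitution U12A, and miR-100-5p from miR-99a-5p by U16A. miR-99b-5p differs from miR-99a-5p by A1C, U11A, U16C and U21C. Across the seed groups, miR-10a-5p and miR-100-5p still share a run of 11 bases, which starts at base 7 of the former and base 6 of the latter. The passenger arms miR-99b-3p and miR-100-3p share the 6 bases CAAGCU, at bases 1 and 2 onwards respectively, so that their seeds are out of register.

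The hairpins lie on 5 chromosomes, all on the plus strand (RefSeq coordinates, GENCODE M21 genes). Mir10a (chr11:96317165-96317274) overlaps no other gene, and the nearest protein-coding gene is Hoxb4, 992 bases away. Mir10b (chr2:74726070-74726137) is intronic in Hoxd3 and Hoxd4. Mir99a (chr16:77598936-77599000) is intronic in the noncoding Mir99ahg and in the antisense protein-coding Gm11146, and lies 656 bases before Mirlet7c-1. Mir99b (chr17:17830188-17830257) is intronic in Spaca6, 94 bases before Mirlet7e and close to Mir125a. Mir100 (chr9:41531425-41531504) is intronic in the noncoding 3110039I08Rik and Gm49317 and overlaps an exon of the antisense Gm48742, with Mirlet7a-2 5211 bases away.

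The deposited tables hold 1 value per small RNA and group, here called signal, a mean over 3 scaled libraries. The spread between RNA-IP libraries is therefore unknown, no test between groups was possible, and counts of members past 2-fold are descriptions. The input was scaled separately in the 2 tables, and its value from the Ago2 table is given unless stated. Both comparisons with input share the same 3 input libraries. Values given as with Ago2 or with Sfpq are those of the respective RNA-IP. The signals lie on sums of whole reads, from which the reads behind a value were estimated. A signal of 20 corresponds to 78.5 reads over the Ago2 libraries, 68.5 over the Sfpq libraries and 51.9 over the input libraries. Intervals in parentheses are 95% exact binomial intervals on these reads and cover counting error only. PCR copies are not independent molecules, and the spread between libraries is not covered.

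In the input, the family was led by miR-10a-5p with a signal of 35304, the 28th highest of 548 mature miRNAs. miR-99b-5p followed at 15020 (40th) and miR-99a-5p at 6981 (51st). The passenger arm miR-99b-3p had 899, above 2 of the guide arms of the family. miR-10a-3p had 212, miR-100-5p 134 and miR-10b-5p 45.2. miR-100-3p lay at 2.01, which stands for 5 reads, all in the same library. The mature forms differ in length by at most 1 base, so signals can be set side by side, although ligation bias between sequences was not tested. All 8 members together held 0.949% of the miRNA signal of the input (0.945 to 0.954), of which miR-10a-5p alone made up 60.2%.

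Input reads per library could be recovered for the members below a signal of 1000, because the input was scaled differently in the 2 tables and the 2 values together fit only 1 set of whole reads. miR-10b-5p had 54, 43 and 23 reads in the 3 input libraries, which are not ordered by replicate number. Scaled as in the Ago2 table, these are signals of 48.1, 51.9 and 35.6, in the same order as the reads here and below. miR-100-5p had 132, 115 and 93 reads, or signals of 118, 139 and 144. miR-10a-3p had 194, 210 and 136 reads (signals of 173, 253 and 211), and miR-99b-3p had 848, 899 and 553 reads (756, 1085 and 857). The highest library was thus 1.22 to 1.46 times the lowest for these 4 members. Over the 192 mature miRNAs with an input of 20 to 1000 and reads in all 3 libraries the median of that ratio was 2.05 (quartiles 1.52 and 3.49). The ratios of the 4 members were thus lower than those of most miRNAs of this range. Such a ratio also depends on read depth, which was not matched. The 4 members had 120 to 2300 reads over the 3 input libraries, and a signal of 20 corresponds to 51.9.

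**Figure D1:**
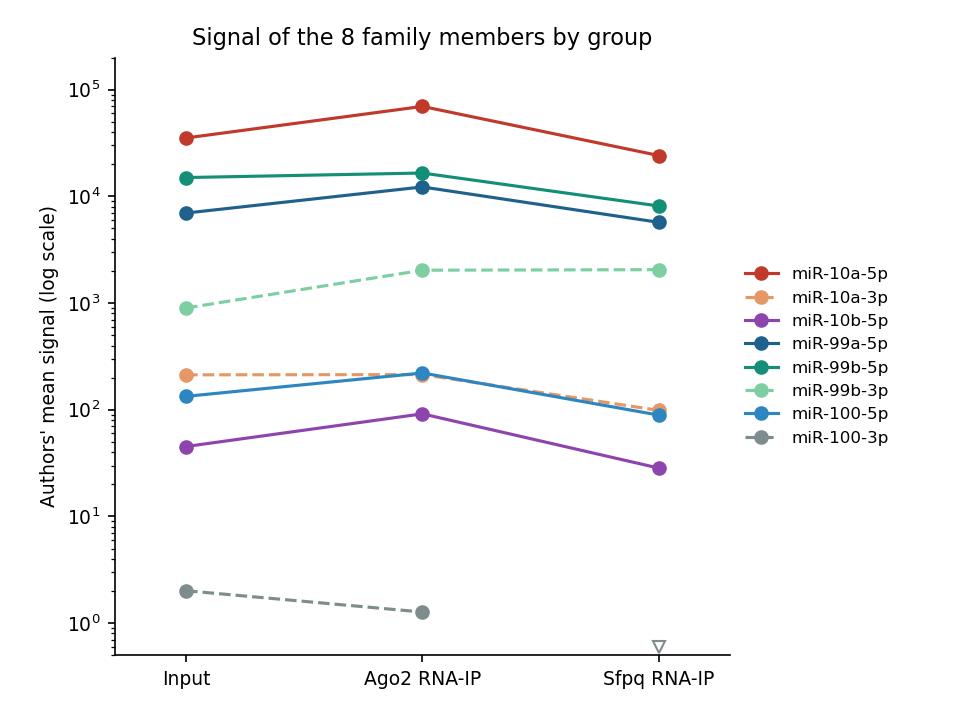
Authors' mean signal (log scale) of the 8 family members in input, Ago2 RNA-IP and Sfpq RNA-IP, with 5p arms as solid and 3p arms as dashed lines and the open triangle marking a value of 0. The 5 guide arms peak in the Ago2 RNA-IP and are lowest in the Sfpq RNA-IP, whereas miR-99b-3p is as high in the Sfpq RNA-IP (2056) as in the Ago2 RNA-IP (2033).

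In the Ago2 RNA-IP, miR-10a-5p reached 69729 against 35304 in the input, a log2 ratio of 0.98 (0.97 to 0.99). Its near copy miR-10b-5p had 91.5 against 45.2, a log2 ratio of 1.02 (0.72 to 1.33). The Ago2 mean of miR-10b-5p lay above all 3 input libraries. How often an RNA-IP mean lies outside the input libraries was not counted over all miRNAs, here or below. In the miR-99/100 group, miR-99a-5p had 12263 against 6981, a log2 ratio of 0.81 (0.79 to 0.84). miR-100-5p had 221 against 134, a log2 ratio of 0.73 (0.55 to 0.91), with the Ago2 mean again above every input library. miR-99b-5p stood below the other guides, at 16557 against 15020 and a log2 ratio of 0.14 (0.12 to 0.16).

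Of the passenger arms, miR-99b-3p had the highest log2 ratio of the family, 1.18 (1.11 to 1.24), with 2033 in the Ago2 RNA-IP against 899 and no input library above 1085. miR-10a-3p had 214 against 212 (log2 ratio 0.01, −0.15 to 0.17), within the range of the input libraries. miR-100-3p had 1.27 in the Ago2 RNA-IP, made of 5 reads as in the input, too few for a comparison. Of the 7 members with a mean signal of 20 or more, 2 were above 2-fold (miR-10b-5p and miR-99b-3p) and none was below. Among all 302 mature miRNAs that passed the same filter, 23.8% were above 2-fold and 11.3% below. The median log2 ratio of the 7 members was 0.81, against 0.49 over all 302. Relative to that median, miR-10a-5p was at 0.49 and miR-10b-5p at 0.52, while miR-99b-5p (−0.35) and miR-10a-3p (−0.49) changed sign. The same 2 changed sign when each miRNA was expressed as a share of all miRNA signal, which moves every log2 ratio by −0.64. On that scale no member was past 2-fold, where 6.29% of all miRNAs were above and 19.9% below, and miR-10b-5p and miR-99b-3p had log2 ratios of 0.38 and 0.54. After centring, too, no member was past 2-fold, beside 8.28% of all miRNAs above and 17.5% below. The call of miR-10b-5p also rests on 1 input library: without the one of 23 reads its log2 ratio was 0.87, and miR-99b-3p stayed above 2-fold without any 1 of the 3 (1.07 to 1.33).

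In the Sfpq RNA-IP, all 5 guide arms had lower signals than in the input of the same table. miR-10a-5p had 24163 against 31022, a log2 ratio of −0.36 (−0.37 to −0.35). miR-10b-5p had 28.4 against 39.9, a log2 ratio of −0.49 (−0.89 to −0.09). The Sfpq mean of miR-10b-5p lay under the lowest input library, which had a signal of 31.2 on the scale of the Sfpq table. miR-99b-5p was the lowest of the guides relative to input, at 8132 against 13286 and a log2 ratio of −0.71 (−0.73 to −0.69). miR-100-5p had 89.1 against 118 (−0.40, −0.63 to −0.18), also under its lowest input library (99.2). miR-99a-5p was nearest to the input, at 5714 against 6171 (−0.11, −0.14 to −0.08).

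The passenger arms went separate ways. miR-99b-3p had 2056 in the Sfpq RNA-IP against 796 in the input, a log2 ratio of 1.37 (1.30 to 1.44), above the highest input library of 1001. miR-10a-3p had 98.7 against 188 (−0.93, −1.13 to −0.73), below the lowest input library of 146. Without the input library of 194 reads the log2 ratio of miR-10a-3p was −1.08, past 2-fold, whereas that of miR-99b-3p ranged from 1.23 to 1.57 without 1 library. miR-100-3p was listed at 0. Of the 7 members that passed, 1 was above 2-fold of input, miR-99b-3p, and none was below, against 23.6% and 16.2% of the 297 mature miRNAs that passed the filter. The median of the 7 members was −0.40, against 0.44 over all 297, so that 6 of 7 members lay under the median of all miRNAs. The scale matters for this count: as shares of the miRNA signal, which moves every log2 ratio by −0.82, 5 members were below 2-fold and none above, where 28.3% of all miRNAs were below. On that scale the log2 ratios were −1.18 for miR-10a-5p, −1.31 for miR-10b-5p, −1.22 for miR-100-5p, −1.52 for miR-99b-5p and −1.75 for miR-10a-3p, and miR-99a-5p stayed inside 2-fold at −0.93. Centred on the median of all miRNAs, 2 members were below 2-fold, miR-10a-3p (−1.37) and miR-99b-5p (−1.14), beside 20.9% of all miRNAs.

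**Figure D2:**
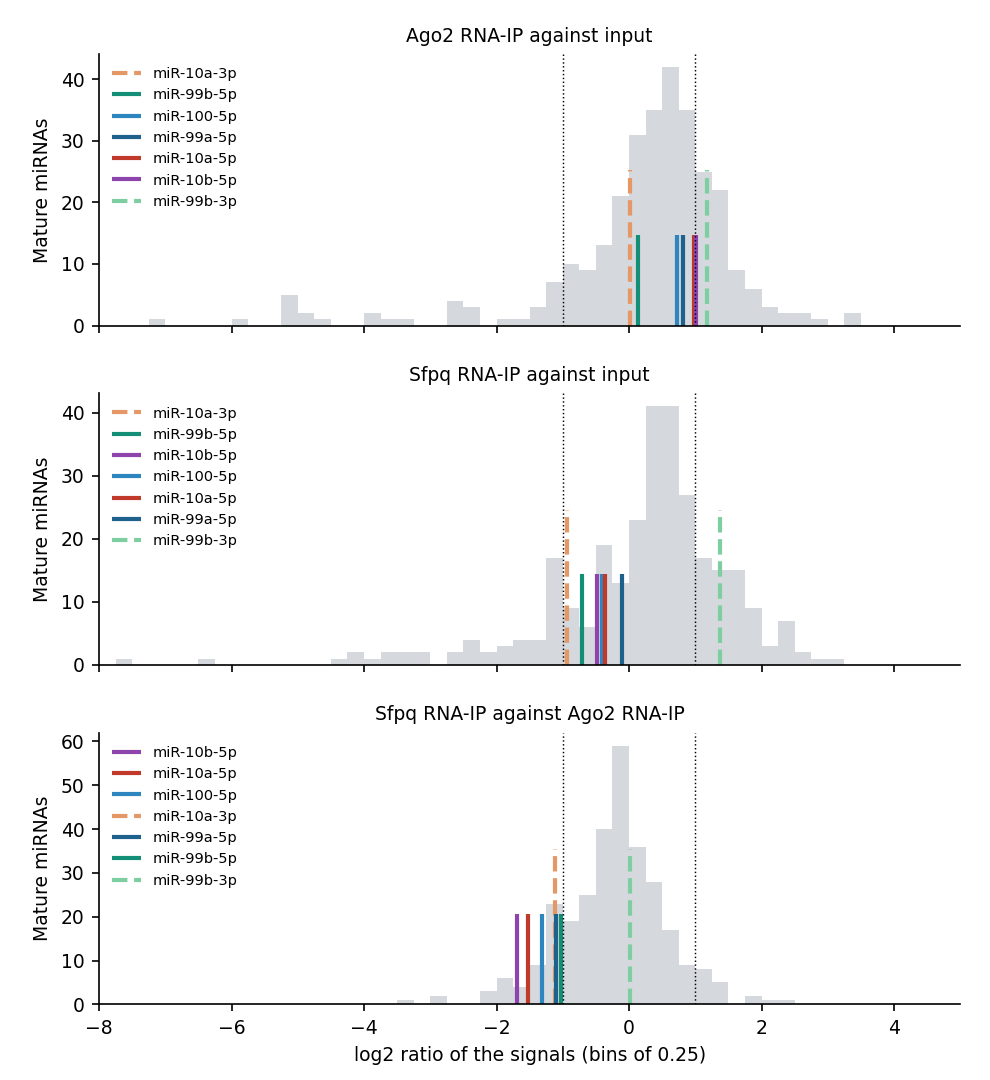
Numbers of mature miRNAs (grey bars, bins of 0.25) by log2 ratio in the 3 comparisons, with the 7 members that passed the filter as coloured lines (5p arms solid, 3p arms dashed and drawn taller) and 2-fold as dotted lines. In the comparison of Sfpq RNA-IP with Ago2 RNA-IP, 6 members lie to the left of the lower dotted line and miR-99b-3p at 0.02 lies among the bulk of miRNAs.

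The RNA-IPs were also set directly against each other, which needs no input value and gave nearly the same ratios on the authors' scale and as shares. This sets signals from 2 separately scaled tables against each other. The guide arms were all more than 2-fold lower in the Sfpq RNA-IP than in the Ago2 RNA-IP. miR-10b-5p had the lowest log2 ratio of Sfpq over Ago2, −1.69 (−2.03 to −1.36), the 14th lowest of 298 mature miRNAs. miR-10a-5p followed at −1.53 (−1.54 to −1.52) and rank 16. miR-100-5p had −1.31 (−1.51 to −1.12), miR-99a-5p −1.10 (−1.13 to −1.08) and miR-99b-5p −1.03 (−1.05 to −1.01), at ranks 24, 39 and 45. In folds, the Sfpq signals were 3.22 times lower for miR-10b-5p, 2.89 times for miR-10a-5p, 2.48 times for miR-100-5p, 2.15 times for miR-99a-5p and 2.04 times for miR-99b-5p. The order thus placed both miR-10 guides below the 3 miR-99/100 guides. Whether the reads of miR-10b-5p are its own was not tested, so the 2 miR-10 guides may not count as separate miRNAs. Nor was it tested for miR-100-5p, which differs from miR-99a-5p by a single base. Between neighbours in this order, the counting intervals of miR-10b-5p and miR-10a-5p overlapped, as did those of miR-100-5p and miR-99a-5p, and the spread between RNA-IP libraries behind the other steps is unknown.

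Among the passenger arms, miR-10a-3p was 2.16 times lower in the Sfpq RNA-IP (log2 ratio −1.11, −1.30 to −0.93), whereas miR-99b-3p was equal within counting error (0.02, −0.03 to 0.06). Thus 6 of the 7 members that passed the filter were below 2-fold and none above. Over all 298 mature miRNAs that passed the filter, 16.1% were below and 5.7% above. The median of the 7 members was −1.11 and that of all miRNAs −0.18. The count depends on the centre chosen, since 3 of the 6 lie close to the 2-fold line: 3 members (miR-10a-5p, miR-10b-5p and miR-100-5p) stayed below it after centring on the median of all miRNAs, where 9.73% of all miRNAs were below. The difference of the 2 log2 ratios to input, each taken within 1 separately scaled table, also left 3 below, beside 10.1% of all miRNAs. By that measure miR-10a-3p (−0.94), miR-99a-5p (−0.92) and miR-99b-5p (−0.85) were inside 2-fold.

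The share of the family in the miRNA signal shows the same in a form that does not depend on scaling between groups. Against 0.949% in the input it was 1.05% with Ago2 (1.05 to 1.06) and 0.419% with Sfpq (0.417 to 0.421). The 2 miR-10 guides held 0.573% in the input, 0.727% with Ago2 and 0.252% with Sfpq. The 3 miR-99/100 guides held 0.359%, 0.302% and 0.145% in the same order, so that their share, unlike that of the miR-10 guides, was lower in the Ago2 RNA-IP than in the input. The most abundant of the 3, miR-99b-5p, had a log2 ratio of shares of −0.50, while those of miR-99a-5p (0.17) and miR-100-5p (0.09) were above 0. The 3 passenger arms together held 0.0180%, 0.0234% and 0.0224%, which is 1.90% of the family's own signal in the input and 5.35% with Sfpq. Nearly all of their signal with Sfpq was that of miR-99b-3p (2056), beside 98.7 for miR-10a-3p and 0 for miR-100-3p.

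The arms of 1 hairpin can be compared within each group without any scaling between groups. In the miR-99b hairpin the 3p arm made up 5.65% of the hairpin's signal in the input (5.43 to 5.88), 10.9% with Ago2 (10.7 to 11.2) and 20.2% with Sfpq (19.8 to 20.6). The 5p to 3p ratio of signals was 16.7 in the input, 8.15 with Ago2 and 3.96 with Sfpq. The miR-99a hairpin, whose 3p arm has the same seed AAGCUCG, had 2.22% of 3p signal in the input, 2.48% with Ago2 and 3.99% with Sfpq (3.73 to 4.27). Its 3p arm had log2 ratios of 0.98 with Ago2 and 0.76 with Sfpq against input, and −0.39 between the RNA-IPs. In the miR-10a hairpin the 3p arm stayed under 1% throughout, at 0.598% in the input (0.549 to 0.650), 0.305% with Ago2 (0.285 to 0.327) and 0.407% with Sfpq (0.365 to 0.452). miR-100 had 1.48% of 3p signal in the input (0.463 to 3.28) and 0.571% with Ago2 (0.186 to 1.33). In the Sfpq RNA-IP it had 0 of about 305 reads, which allows a share of up to 0.984% by 3 counts of the total (the exact interval, which the plot of arm shares draws, reaches 1.20%), so a difference was not detectable at this depth.

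**Figure D3:**
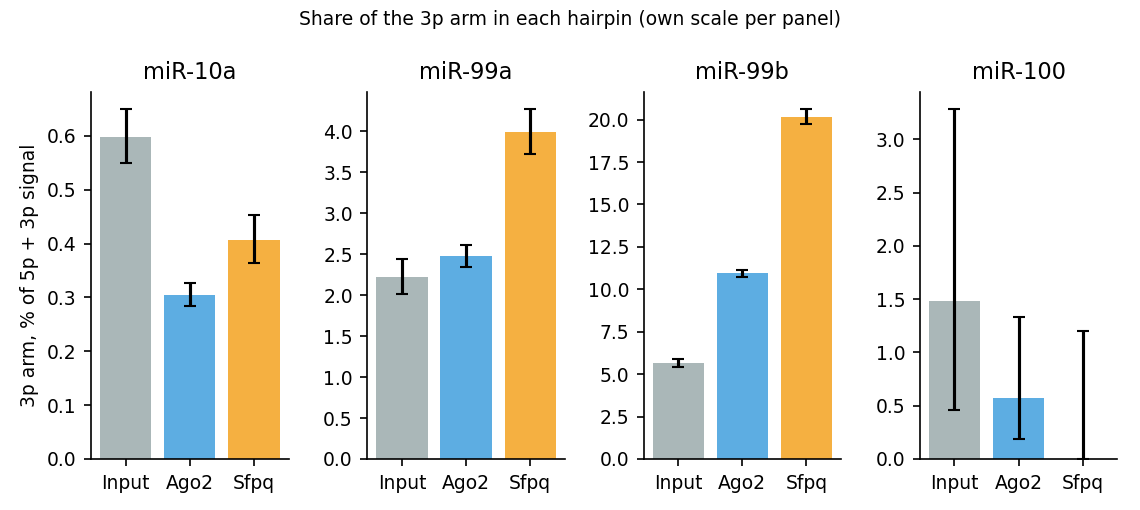
Share of the 3p arm in the summed 5p and 3p signal (percent, own scale per panel) of 4 hairpins in input, Ago2 RNA-IP and Sfpq RNA-IP, with 95% exact binomial intervals for counting error as error bars. The miR-99b panel goes from 5.65% in the input to 20.2% with Sfpq, and the miR-10a panel is highest in the input (0.598%).

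The near-identical copies were compared in the same way, since a read with an error at the single differing base could be assigned to the wrong copy. miR-10b-5p amounted to 0.128% of miR-10a-5p in the input (0.106 to 0.153), 0.131% with Ago2 (0.118 to 0.146) and 0.117% with Sfpq (0.0950 to 0.143). These intervals overlap, so the ratio of miR-10b-5p to miR-10a-5p did not differ beyond counting error, and whether the reads of miR-10b-5p are its own was not tested. The signals of miR-10b-5p are therefore uncertain as a separate member. miR-100-5p amounted to 1.91% of miR-99a-5p in the input (1.72 to 2.13), 1.80% with Ago2 (1.68 to 1.93) and 1.56% with Sfpq (1.39 to 1.74), the last with an interval that overlaps each of the other 2 only at its edge. Whether the reads of miR-100-5p are its own was likewise not tested. The other arm of the Mir10b hairpin, miR-10b-3p, was looked for by name without a match and was not analysed here.

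**Figure D4:**
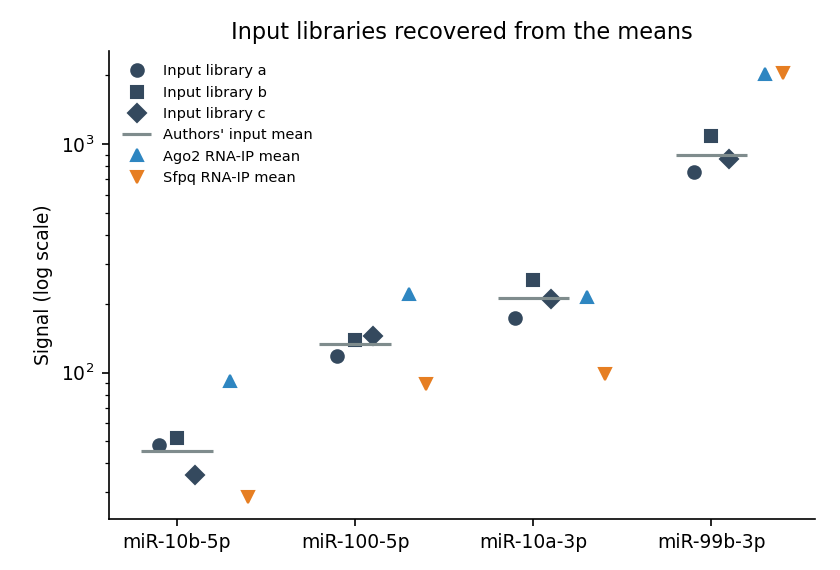
Signals (log scale) of the 4 members with an input of 20 to 1000, with the 3 input libraries as dark symbols, the authors' input mean as a line (scale of the Ago2 table) and the means of the Ago2 RNA-IP (blue) and Sfpq RNA-IP (orange). The Ago2 mean of miR-10b-5p, miR-100-5p and miR-99b-3p lies above all 3 input libraries, and the Sfpq mean lies below all 3 except for miR-99b-3p. Such placings were not counted over all miRNAs. Of those that passed the filter, 215 of 302 were above the input mean with Ago2 and 202 of 297 with Sfpq.

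The genomic partners of the miR-99 and miR-100 genes were set beside the family, guides first. let-7e-5p, the guide of the hairpin next to Mir99b, had a log2 ratio of 0.41 with Ago2 and 0.43 with Sfpq against input, and −0.16 between the RNA-IPs. let-7c-5p, beside Mir99a, had 0.48, 0.44 and −0.22 in the same 3 comparisons. let-7a-5p, which has further genes elsewhere, had 0.46, 0.43 and −0.21. miR-125a-5p had 0.33, 0.23 and −0.28, and miR-125b-5p, encoded in the clusters of both Mir99a and Mir100, had 0.62, 0.62 and −0.18. All 5 partner guides were thus inside 2-fold in every comparison and near the median of all miRNAs between the RNA-IPs, where the 5 family guides ranged from −1.69 to −1.03.

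The passenger arms of the partners were more varied. In the Spaca6 cluster, the 3p share of the miR-125a hairpin was 24.1% in the input, 18.3% with Ago2 and 11.9% with Sfpq, the opposite order to that of miR-99b. The 3p share of let-7e was 0.192%, 0.0726% and 0.0851%. let-7c-1-3p had log2 ratios of −2.26 with Ago2 and −1.80 with Sfpq, miR-125b-2-3p 0.73 and 0.24, and miR-125b-1-3p −0.02 and 0.17. Between the RNA-IPs, miR-125a-3p had a log2 ratio of −1.02, next to that of miR-99b-5p (−1.03) and past 2-fold. miR-125b-2-3p had −0.66 there, let-7e-3p 0.07 and let-7c-1-3p 0.30. Against input, miR-125a-3p had 609.8 with Ago2 against 683.9, and 301.1 with Sfpq against 603.8, also just past 2-fold. Of the 4 other miRNAs of the Hox clusters looked for, only miR-196a-5p was matched, listed at 0 in the input and at a signal of 0.781 with Ago2.

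The miRNAs most like each member were taken as the nearest of 260 in the plane of the 2 log2 ratios to input. For both miR-10 guides the nearest was miR-142-5p, a blood-lineage miRNA, at a distance of 0.29 from miR-10a-5p and 0.17 from miR-10b-5p. Second came miR-146a-5p, an inflammation-induced miRNA of macrophages, for miR-10a-5p (0.32) and miR-1249-3p for miR-10b-5p (0.38). miR-142-5p had log2 ratios of 0.94 with Ago2 and −0.65 with Sfpq. miR-99a-5p was nearest to miR-330-3p (0.14) and miR-100-5p to miR-186-5p (0.21). miR-99b-5p and miR-10a-3p had miR-322-3p among their nearest 2 (0.23 and 0.16), and miR-340-3p was as near to miR-10a-3p (0.16). miR-99b-3p was nearest to miR-190b-5p (0.09) and miR-301a-3p (0.17), which were above 2-fold of input in both RNA-IPs.

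The members differ in their first base, which in Argonaute proteins is held in a pocket: U in both miR-10 guides, A in miR-99a-5p and miR-100-5p, and C in miR-99b-5p. First bases were compared among 255 mature miRNAs with a RefSeq sequence, the family's guides included. The share below 2-fold in the Sfpq RNA-IP against the Ago2 RNA-IP was 13.5% of the 104 that start with U and 25% of the 72 with A. It was 16.4% of the 55 with C and 4.17% of the 24 with G. The median log2 ratios were −0.16 for U, −0.13 for C, −0.35 for G and −0.27 for A. A role of the first base was not tested.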

How the data were processed

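Small RNA libraries were sequenced on a SOLiD instrument; the study's methods name LifeScope and the omiRas webserver, and the submitters' notes name cutadapt and mm10, so which step made the values is unclear. The labels and the methods also differ on the library kit. In 2 tables the authors deposited 1 signal per small RNA and group, a mean of 3 scaled libraries. The authors' own comparisons (log2 ratios, p-values, false discovery rates and lists of enriched RNAs) were not used. All values under 2 lay on sums of whole multiples of 3 weights per column (tolerance 0.0005), which gave the reads behind a signal. Together the 2 input values gave reads per library for all 195 mature miRNAs at 20 to 1000. This was tested on simulated data. No other per-sample column was found.

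Log2 ratios were recomputed without a pseudocount for mature miRNAs with a mean of both signals of at least 20 and called past 2-fold. Python 3.11.15, NumPy 2.4.6, pandas 2.3.3 and SciPy 1.17.1 were used. Signals sum to 9809388 with Ago2 and 7299085 in its input, and to 9957738 with Sfpq and 6449023 in its input. Named besides the members were cluster partners, Hox miRNAs, markers and the 2 nearest miRNAs in the plane of the ratios. The members and lists were chosen with earlier results of these data known. Alternatives covered pseudocount, filter, fold, scale, input and, added later, leaving out 1 input library. Whether replicates are separate cultures is not given in the sources used here.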

Additional observations from a re-analysis of the deposited data

How the results depend on the processing

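The count of members past 2-fold of input in the Ago2 RNA-IP (2, both above) became 1 with a pseudocount of 10 (beside 21.5% of all miRNAs above), 1 at a mean signal of at least 100 (24.9%), 5 at 1.5-fold (44.7%), and 0 at 4-fold (3.31%), with shares of the miRNA signal (6.29%) and after centring on the median of mature miRNAs (8.28%). In the Sfpq RNA-IP the count (1 above) became 2 with no filter (1 above and 1 below, beside 29.0% and 23.1%), 3 at 1.5-fold (1 above and 2 below, beside 43.4% and 20.9%), 0 at 4-fold (4.71% and 6.73%), 5 with shares (all below, beside 28.3%) and 2 after centring (both below, beside 20.9%). Between the RNA-IPs the 6 members below became 0 at 4-fold (2.01% of all miRNAs below), 3 after centring (9.73%) and 3 with the difference of the ratios to input (10.1%). They were 6 with a pseudocount of 1 (15.8% of all miRNAs below) or 10 (13.4%), at 1.5-fold (28.2%) and with shares (16.1%). Without a filter they were 7 (18.6%), and at a mean signal of at least 100 they were 5 (13.7%). The member added without a filter was miR-100-3p, at 0 with Sfpq against 5 reads with Ago2. As a share of all small RNA signal the family held 0.803% in the input, 1.03% with Ago2 and 0.405% with Sfpq. Of 130 member ratios under these alternatives, 94 stayed within their counting interval and 36 did not, and 4 changed sign, all in the Ago2 RNA-IP against input: miR-10a-3p (−0.63 with shares, −0.49 centred) and miR-99b-5p (−0.50 and −0.35). A pseudocount of 1 moved the 3p share of miR-100 from 1.48% to 2.19% in the input, from 0.571% to 1.01% with Ago2 and from 0 to 1.098% with Sfpq, each within its counting interval, and the 3p shares of miR-10a and miR-99b by less than their counting intervals. No paired analysis was possible because each group is a single mean that carries no replicate number, and no RNA-IP library could be left out. Leaving out each input library in turn, chosen after seeing the data and possible for 4 members, gave log2 ratios with Ago2 and with Sfpq of 0.87 to 1.13 and −0.64 to −0.34 for miR-10b-5p, 0.64 to 0.79 and −0.51 to −0.34 for miR-100-5p, −0.12 to 0.15 and −1.08 to −0.74 for miR-10a-3p, and 1.07 to 1.33 and 1.23 to 1.57 for miR-99b-3p. Depth limits miR-100-3p (5 reads or fewer per group) and miR-10b-5p.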
